A study of Rattus norvegicus with 9 samples.

Results

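AS-tDR-000393, AS-tDR-000395 and AS-tDR-000397 are 3 of the 530 tRNA-derived small RNAs listed in a study of the rat brain after intracerebral haemorrhage (ICH). They were picked by name, for their closely numbered identifiers and because their levels were higher in rats given a herbal decoction than in untreated rats with a haemorrhage. The haemorrhage libraries therefore chose the members, and levels in those libraries are given as a description. The tissue lay around the right globus pallidus and was taken from male Sprague-Dawley rats perfused with saline on day 21 after the operation. Sham rats received 2.5 µl of saline into the pallidum, ICH rats received 0.5 U of collagenase type VII in the same volume, and ICH + BYHWD rats had the collagenase injection and then 4.36 g/kg of Buyang Huanwu Decoction (BYHWD) by gavage once a day for 21 days. The labels mention gavage for the decoction group alone. Each group had 3 libraries, numbered here in accession order only to name them.

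tRNA-derived small RNAs are pieces cut from mature or precursor tRNAs. The longer ones, called tiRNAs, arise when a nuclease such as angiogenin cuts the anticodon loop in stressed mammalian cells, and the shorter tRFs come from the ends of a tRNA or from the trailer of its precursor. Some tRFs associate with Argonaute proteins and some tiRNAs repress translation. Collagenase breaks down the basal lamina of small vessels so that blood enters the tissue, and the decoction is a traditional Chinese formula used after stroke. The files name the 3 fragments only by identifier, and no table used here gives their sequence, fragment type or parent tRNA, so their roles are not described.

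Library totals ran from 530827 tags in sham 3 to 1066616 in ICH 1 and were larger in each ICH library than in any sham library. A level is given in TPM as deposited, that is the tag count of a fragment divided by the total of its library and multiplied by a constant, with no correction for length. The tables hold tRNA fragments alone, so the labelled tissue could not be checked against marker genes. In bulk tissue, fewer cells of a type and less RNA per cell cannot be told apart.

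All 3 fragments were listed above 0 in every library, at moderate to low levels. AS-tDR-000393 averaged 508 TPM over the 9 libraries, rank 214 of 530 by mean level. AS-tDR-000395 averaged 432 TPM, rank 248, and AS-tDR-000397 averaged 316 TPM, rank 290. Together they made up 0.065 to 0.167% of the tags of a library. Counts ran from 146 for AS-tDR-000397 in sham 3 to 617 for AS-tDR-000395 in ICH + BYHWD 3. Exact Poisson intervals at 95% for these levels were 232 to 323 TPM and 568 to 666 TPM. Such intervals cover counting error only.

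In TPM, AS-tDR-000393 was the only member whose ICH libraries stood clear of both other groups. It was at 711, 614 and 492 TPM in sham 1, 2 and 3. In ICH 1, 2 and 3 it was at 344, 260 and 369 TPM, and in ICH + BYHWD 1, 2 and 3 at 636, 569 and 575 TPM. The highest ICH library lay below the lowest library of sham and of ICH + BYHWD, while sham and ICH + BYHWD overlapped. The group means were 606 ± 110 TPM in sham, 325 ± 57.1 in ICH and 593 ± 37.0 in treated rats (SD, n = 3). The ICH + BYHWD libraries lay close together, with an SD 1.36 times that of counting error, against 3.63 times in sham and 3.12 times in ICH.

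AS-tDR-000395 was at 533, 418 and 313 TPM in sham 1, 2 and 3. It was at 256, 233 and 400 TPM in ICH 1, 2 and 3, and at 643, 475 and 616 TPM in ICH + BYHWD 1, 2 and 3. ICH 3 stood above sham 3, so the label of lower after haemorrhage did not hold for every library of this fragment. All ICH + BYHWD libraries were above all ICH libraries, and their mean of 578 ± 90.0 TPM was the highest of the groups, against 421 ± 110 in sham and 296 ± 90.5 in ICH (SD, n = 3). Sham and ICH + BYHWD overlapped, with ICH + BYHWD higher in 8 of 9 pairs of libraries.

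AS-tDR-000397, the least abundant of the fragments, was at 364, 392 and 275 TPM in sham 1, 2 and 3. It was at 198, 157 and 306 TPM in ICH 1, 2 and 3, and at 334, 344 and 478 TPM in ICH + BYHWD 1, 2 and 3. As for AS-tDR-000395, ICH 3 stood above sham 3, and every ICH + BYHWD library stood above every ICH library. The means were 344 ± 61.0 TPM in sham, 220 ± 77.1 in ICH and 385 ± 80.4 with the decoction (SD, n = 3). The ICH 2 value was 1.18 times the lowest level listed for any fragment in that library, so this fragment came close to the listing minimum there.

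**Figure D1:**
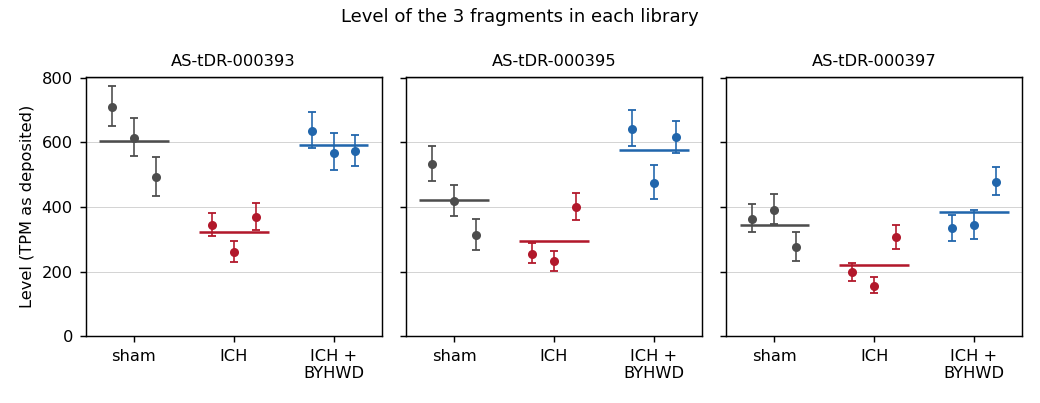
Level of the 3 fragments in TPM as deposited (y axis) in each library of sham, ICH and ICH + BYHWD (x axis, libraries 1 to 3 from left to right); bars are 95% Poisson intervals of the count and horizontal lines are group means. For AS-tDR-000393 the ICH libraries, at 260 to 369 TPM, lie below all others, while for AS-tDR-000395 and AS-tDR-000397 ICH 3 lies above sham 3.

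The first comparison asks how fragments differ after a haemorrhage from sham-operated tissue. The edgeR log2 fold change of ICH over sham, with TMM scaling of the counts, was -0.75 (SE 0.16) for AS-tDR-000393, -0.39 (SE 0.22) for AS-tDR-000395 and -0.53 (SE 0.22) for AS-tDR-000397. Their median was -0.53, beside -0.019 over the 455 fragments tested. The edgeR quasi-likelihood test called 0 of the 3 members and 0% of all fragments at an adjusted p under 0.05. At an unadjusted p under 0.05 it counted 2 of the 3 members and 9.01% of all fragments, and limma-voom called 0 of either. DESeq2 called 1 member, AS-tDR-000393, and 5.93% of all fragments.

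All ICH libraries lay below all sham libraries in TPM for 1 member, as they did for 8.35% of the fragments tested. With TMM scaling the same was true of 2 members, AS-tDR-000393 and AS-tDR-000397, and of 11.9% of the fragments. Because the members were picked for levels in the ICH libraries, these counts are a description. On the TMM-scaled level AS-tDR-000397 thus stood clear of both other groups, as AS-tDR-000393 did. It was at 290 to 357 CPM in ICH, 379 to 511 in sham and 408 to 553 in ICH + BYHWD. With sham 3 left out, edgeR called AS-tDR-000393, with a log2 fold change of -0.99, beside 9.19% of 479 fragments. The value of AS-tDR-000395 was -0.65 without sham 3 and -0.25 without sham 1. Leaving out a library also moved the scaling, and the median of all fragments was then -0.11 and -0.078. Relative to the median, AS-tDR-000395 was at -0.53 and -0.17, beside -0.37 in the main fit, so its size varied with the sham libraries kept.

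The next comparison sets rats given the decoction against untreated rats with a haemorrhage, and it is the contrast by which the members were picked. Since gavage is mentioned for the decoction group alone, gavage and decoction cannot be told apart here. The log2 fold change of ICH + BYHWD over ICH was 0.57 (SE 0.16) for AS-tDR-000393, 0.69 (SE 0.22) for AS-tDR-000395 and 0.54 (SE 0.22) for AS-tDR-000397. The median over all fragments was -0.087. In all 3 members every ICH + BYHWD library lay above every ICH library in TPM, which was true of 11.4% of the fragments tested, and of 10.8% with TMM scaling, where the 3 members also stood clear. With edgeR, 0 of the 3 members and 0% of all fragments passed an adjusted p of 0.05, and 3 members and 6.59% of all fragments had an unadjusted p under 0.05. DESeq2 called AS-tDR-000393 and 2.2% of all fragments, and limma-voom called 0. Because the members were picked by this contrast, their counts are a description and no test of the members as a set.

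The size of this difference depended on the scaling. The ratio of mean TPM was 1.83 for AS-tDR-000393, 1.95 for AS-tDR-000395 and 1.75 for AS-tDR-000397, while the TMM-scaled folds were 1.48, 1.61 and 1.45 in the same order. TMM factors were 0.856, 0.647 and 1.18 in ICH 1, 2 and 3 and 1.10 to 1.14 in ICH + BYHWD. Without scaling factors the median of all fragments moved to 0.22, and the log2 fold changes were 0.92, 1.01 and 0.84. Relative to that median they were 0.70, 0.78 and 0.62. With TMM scaling they were 0.66, 0.77 and 0.62 relative to the median of -0.087. The values relative to the median thus differed little between these settings.

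The comparison of ICH + BYHWD with sham was not named in the choice of members, although it shares its libraries with both contrasts above. No member differed past the threshold of the edgeR quasi-likelihood test, each with an adjusted p of 0.997 over 455 fragments, and 0% of all fragments were called. AS-tDR-000393 had a log2 fold change of -0.18 (SE 0.16), a fold of 0.880 with a 95% interval of 0.683 to 1.13. AS-tDR-000395 had one of 0.30 (SE 0.22), a fold of 1.23 with an interval of 0.873 to 1.74. For AS-tDR-000397 the fold was 1.00 with an interval of 0.704 to 1.43.

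These intervals do not show that treated and sham tissue were alike: for AS-tDR-000395 they allow a level up to 1.74 times that of sham. At an unadjusted p under 0.05 there were 0 of the 3 members and 4.18% of all fragments, and DESeq2 and limma-voom called 0 members, beside 4.18% and 0% of all fragments. With sham 1 left out, the value of AS-tDR-000395 on the log2 scale was 0.62 and that of AS-tDR-000393 turned to 0.070. The median of all fragments was then 0.16, against 0.063 in the main fit, and AS-tDR-000393 stayed below it in both.

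**Figure D2:**
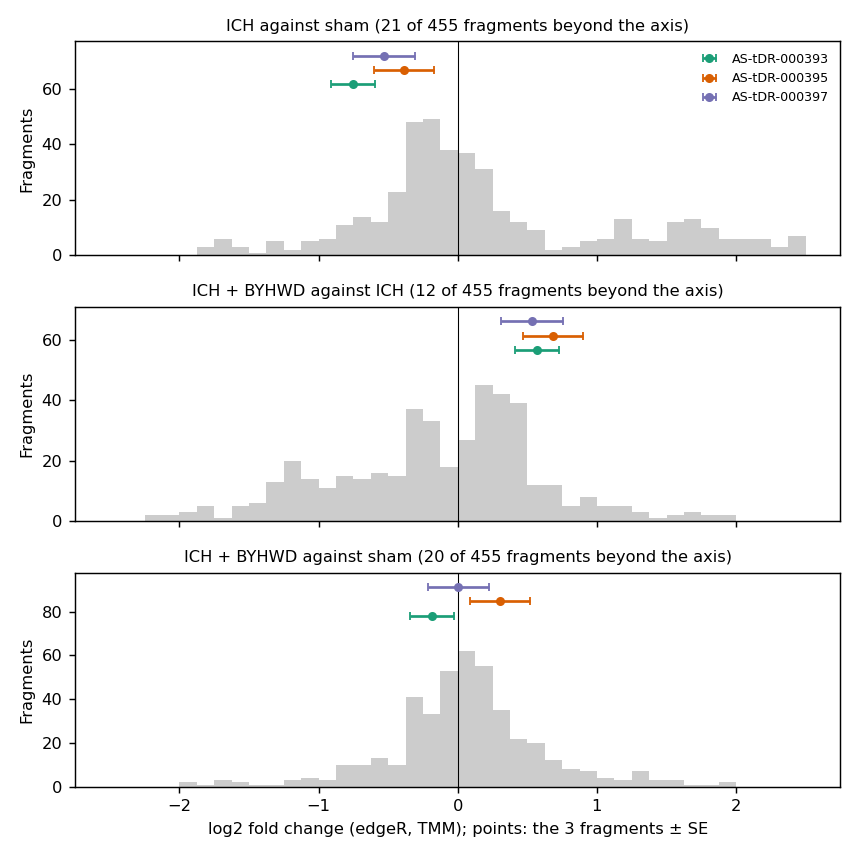
Log2 fold changes from edgeR with TMM scaling (x axis) in the 3 comparisons; grey bars count all fragments tested within the axis (y axis) and coloured points give AS-tDR-000393, AS-tDR-000395 and AS-tDR-000397 with their SE, at heights set only for display. The members lie at -0.75 to -0.39 for ICH against sham, at 0.54 to 0.69 for ICH + BYHWD against ICH, and at -0.18 to 0.30 for ICH + BYHWD against sham.

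Ratios between the members within a library do not depend on how libraries are scaled and were not used in the choice. AS-tDR-000397 had fewer tags than either other member in all 9 libraries, at 0.512 to 0.832 times AS-tDR-000393 and 0.519 to 0.936 times AS-tDR-000395. AS-tDR-000395 had fewer tags than AS-tDR-000393 in 6 libraries and more in 3. These ratios compare tag counts, since no source used here gives fragment lengths.

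The balance of AS-tDR-000395 to AS-tDR-000393 was lowest in sham. The ratio was 0.750, 0.681 and 0.636 in sham 1, 2 and 3. It was 0.744, 0.894 and 1.08 in ICH 1, 2 and 3, and 1.01, 0.835 and 1.07 in ICH + BYHWD 1, 2 and 3. Every ICH + BYHWD library lay above every sham library, whereas ICH 1 lay within the sham range. The mean log2 ratio was -0.54 ± 0.12 in sham, -0.16 ± 0.27 in ICH and -0.048 ± 0.19 with the decoction (SD, n = 3).

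The difference between ICH + BYHWD and sham, 0.49 on the log2 scale, had a two-sided exact permutation p of 0.1, the smallest that 3 against 3 allows, and an adjusted p of 0.675 over 9 tests. For ICH against sham the difference of 0.38 had an exact permutation p of 0.2 and an adjusted p of 0.675. The other 7 tests of ratios, with differences of -0.32 to 0.22, had exact permutation p values of 0.3 to 1 and adjusted p values of 0.675 to 1, so none of the 9 tests passed the threshold, which 3 against 3 libraries cannot reach.

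**Figure D3:**
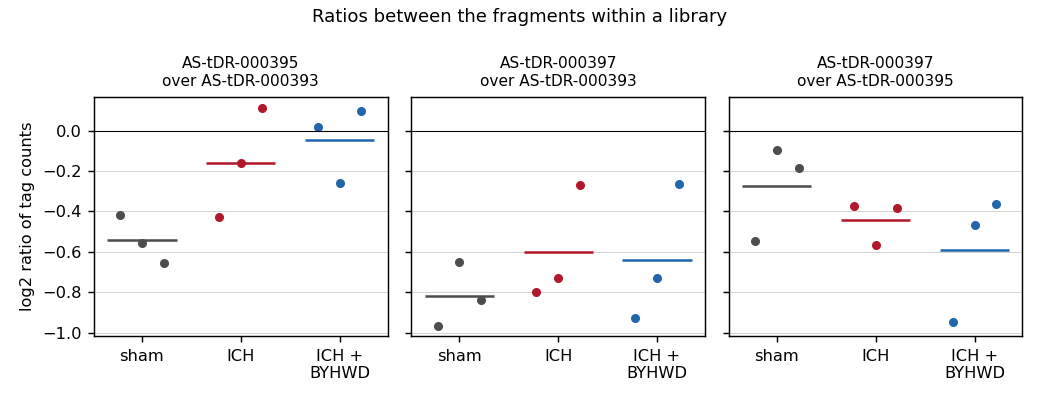
Log2 ratio of tag counts of each pair of the 3 fragments (y axis) in each library of sham, ICH and ICH + BYHWD (x axis); horizontal lines are group means. For AS-tDR-000395 over AS-tDR-000393 the sham libraries, at -0.65 to -0.42, lie below all ICH + BYHWD libraries, at -0.26 to 0.099.

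The 3 fragments tracked each other across libraries in TPM, and less so with TMM scaling. Over 9 libraries the Pearson r of log2 TPM was 0.85 for AS-tDR-000393 and AS-tDR-000395, 0.86 for AS-tDR-000393 and AS-tDR-000397, and 0.89 for AS-tDR-000395 and AS-tDR-000397, with Spearman rho of 0.87, 0.78 and 0.78. The members were picked for a common difference between groups, so r was also computed after subtracting the group means. It was then 0.85, 0.66 and 0.79 in the same order, and 0.64, 0.0098 and 0.53 on the TMM-scaled level. In TPM, the second of each pair ranked 15, 10 and 8 of 310 fragments by r with the first. After the group means were subtracted it ranked 10, 66 and 25. Libraries share scaling and composition across fragments: the median r of AS-tDR-000393 with 310 other fragments above 0 in all libraries was 0.47.

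The composition of the libraries moved with the members. Listed fragments held 79.8, 80.6 and 73.0% of the tags in ICH 1, 2 and 3, against 71.2 to 77.1% in sham and 72.6 to 76.3% in ICH + BYHWD. Over the 9 libraries this share had a Pearson r of -0.77 with log2 TPM of AS-tDR-000393, -0.73 with AS-tDR-000395 and -0.74 with AS-tDR-000397. Against the level of AS-tDR-000052, the most abundant fragment, r was -0.65, -0.42 and -0.57. These r values were computed for the members alone, so they do not show a trait particular to the members. The part of library composition in the levels of the members was not tested.

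AS-tDR-000393 had the smallest spread within groups of the 3 members. Its coefficient of variation of TPM, pooled over the groups, was 15.0%, rank 14 from the steadiest of 311 fragments above 0 in all libraries. It was 24.9% for AS-tDR-000395 and 25.6% for AS-tDR-000397, beside a median of 26.1% over the 311. On the TMM-scaled level it was 11.7% for AS-tDR-000393, rank 24, 18.0% for AS-tDR-000395 and 15.0% for AS-tDR-000397, beside a median of 19.7%, so the order of the last pair depended on the scaling.

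The identifiers between the members did not all follow them. AS-tDR-000396, the most abundant of the 5 fragments numbered from AS-tDR-000393 to AS-tDR-000397, was at 1638, 1025 and 966 TPM in sham 1, 2 and 3. It was at 1193, 1231 and 911 TPM in ICH 1, 2 and 3, and at 1109, 1571 and 914 TPM in ICH + BYHWD 1, 2 and 3. The groups overlapped in every comparison, with means of 1210 ± 372, 1112 ± 175 and 1198 ± 337 TPM (SD, n = 3). Its Pearson r with the mean profile of the members was 0.034 over 9 libraries, rank 223 of 308 fragments.

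AS-tDR-000394, the other identifier between them, was close to the listing minimum in several libraries. It was at 257, 192 and 143 TPM in sham, at 138 and 208 TPM in ICH 1 and 3 and listed at 0 in ICH 2, and at 196, 218 and 353 TPM in ICH + BYHWD 1, 2 and 3. The groups overlapped, and no fold is given against a group with a library at 0. The members made up 45.9 to 53.9% of the summed level of the 5 fragments in sham, 34.5 to 49.0% in ICH and 43.7 to 56.8% in ICH + BYHWD. The next listed numbers outside were AS-tDR-000376 and AS-tDR-000441. AS-tDR-000376, the 1 other fragment within 20 of the members' numbers, had overlapping groups in TPM, with means of 909 ± 87.8 TPM in sham, 1062 ± 276 in ICH and 1033 ± 188 with the decoction (SD, n = 3). On the TMM-scaled level its ICH libraries, at 1519 to 1576 CPM, stood above all others, at 1001 to 1499 CPM, the opposite direction to the members. AS-tDR-000394 and AS-tDR-000396 had overlapping groups on that scale too.

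AS-tDR-000393 and AS-tDR-000395 also adjoin in the order of the table, while AS-tDR-000397 stood beside neither. Row order was not used in the choice, but closely numbered identifiers were. Where fragments numbered from AS-tDR-000393 to AS-tDR-000397 adjoin, their rows follow the numbers. A table has 2122 rows for 530 fragments, and a fragment on several rows has the same values on each. AS-tDR-000393 and AS-tDR-000395 each stood on 7 rows. AS-tDR-000395 was directly below AS-tDR-000393 at 6 places and below AS-tDR-000394 at the other, and AS-tDR-000396 was directly below AS-tDR-000395 at 6 places. AS-tDR-000397 stood on 1 row, directly below AS-tDR-000396. What the repeated rows and their order stand for is stated in no source used here.

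The rows directly above AS-tDR-000393 held AS-tDR-006248 at 3 places, AS-tDR-006441 at 2, and AS-tDR-006872 and AS-tDR-006203 at 1 each. Each of these 4 had its lowest TPM in ICH 2, at 719, 313, 202 and 194 TPM. The same was true of each member, of AS-tDR-000394 and of AS-tDR-000376. The ratios of mean TPM of these 4 were 0.769 to 0.828 for ICH over sham and 1.41 to 1.53 for ICH + BYHWD over ICH. Those of the members were further from 1, at 0.536 to 0.703 and 1.75 to 1.95, which the choice of members favours. In AS-tDR-006872 every ICH + BYHWD library, at 410 to 503 TPM, lay above every ICH library, at 202 to 390 TPM. In the other 3 they overlapped in TPM. On the TMM-scaled level AS-tDR-006872 again stood clear, and so did AS-tDR-006248, at 1701 to 2017 CPM in ICH + BYHWD and 1384 to 1651 CPM in ICH. Of the fragments directly below a member, AS-tDR-007794 had overlapping groups and was listed at 0 in ICH + BYHWD 3, and AS-tDR-008267 was listed only in sham 1 and 2, at 170 and 176 TPM.

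**Figure D4:**
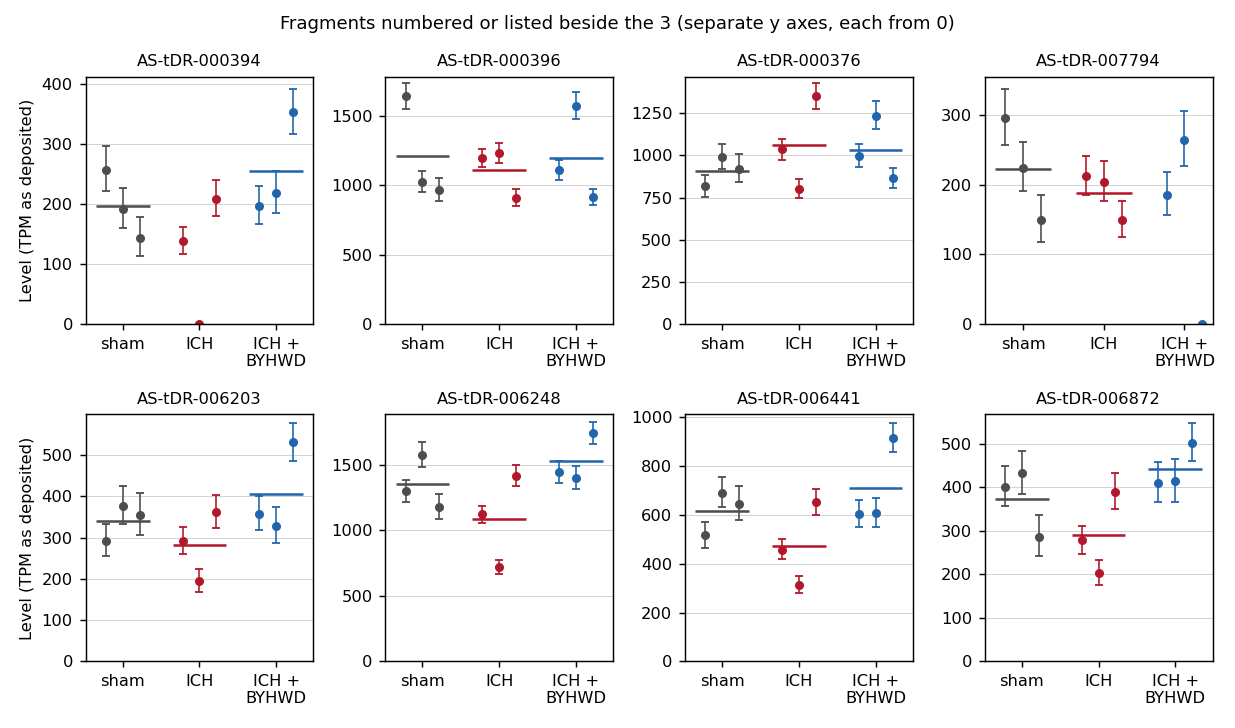
Level in TPM as deposited (y axis, separate for each panel) of 8 fragments numbered or listed beside the members, by library and group (x axis); bars are 95% Poisson intervals of the count, and lines are group means where no library is at 0. AS-tDR-000396 has overlapping groups between 911 and 1638 TPM. The 4 fragments of the lower row have their lowest level in ICH 2, as do AS-tDR-000394 and AS-tDR-000376.

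The fragments most like the mean log2 TPM profile of the members over 9 libraries were AS-tDR-000542, with a Pearson r of 0.95, AS-tDR-007981 and AS-tDR-010008, with 0.94 each, AS-tDR-006872, with 0.94, and AS-tDR-009994, with 0.93, among 308 fragments. AS-tDR-000542 was at 328, 301 and 237 TPM in sham 1, 2 and 3, at 209, 149 and 244 TPM in ICH 1, 2 and 3, and at 347, 317 and 290 TPM in ICH + BYHWD 1, 2 and 3. As for AS-tDR-000395 and AS-tDR-000397, its ICH 3 library lay above sham 3 in TPM. On the TMM-scaled level all ICH libraries of AS-tDR-000542 and of AS-tDR-007981 lay below all sham libraries. As in the members, every ICH + BYHWD library stood above every ICH library in TPM in AS-tDR-000542, AS-tDR-007981 and AS-tDR-006872. In AS-tDR-010008 and AS-tDR-009994 it was higher in 8 of 9 pairs of libraries. The pattern was thus not particular to the members. After the group means were subtracted, the closest were AS-tDR-009636 and AS-tDR-010008, with an r of 0.96 each, AS-tDR-008476, with 0.95, and AS-tDR-006872 and AS-tDR-007636, with 0.94 each. AS-tDR-010008 and AS-tDR-006872 were in both lists.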

How the data were processed

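Small RNA libraries were made after removal of tRNA modifications that hinder ligation or reverse transcription, with inserts of 15 to 50 nt and 50 sequencing cycles, per the labels' protocols. FastQC, cutadapt and Novoalign 2.07.11 are listed in the submitters' processing notes, as is the human assembly hg19. How that build served rat reads, how fragments were annotated and how tags were counted was not given in the sources used here. The deposited tables hold whole-number tag counts and a TPM that equals the count over 1 total per file times 1 constant, checked on every row. Rows repeat, so 1 row per fragment was kept. The lowest listed level above 0 was 134 to 152 TPM. A 0 was read as unlisted in the text, but the main fits took it as a count of 0. An alternative setting used the lowest listed count instead.

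All 9 libraries were fitted together with edgeR 4.0.16 in R 4.3.3: TMM factors on listed sums, filterByExpr (minimum count 10), a robust quasi-likelihood F-test and Benjamini-Hochberg adjustment over 455 fragments, with a threshold of 0.05. The procedure was run on simulated data, with a pass mark set only at a low spread. Its power at the spread of these libraries is not given here. Alternatives were DESeq2 1.42.0, limma-voom (limma 3.58.1), other scalings and filters, and leaving out each library. Ratios between members were compared by two-sided exact permutation tests over 20 assignments. Fragments named beside the members were those within 20 of their numbers, those on adjoining rows, and the 5 most like their mean profile over all libraries and within groups. The members and lists were chosen with earlier results of these data known. Nothing in the labels ties a library to a single rat or to a batch, so p-values reflect the variation among these 9 libraries, which may be technical. The self-computed SE of a log2 fold change comes from its F statistic.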

Additional observations from a re-analysis of the deposited data

How the results depend on the processing

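Of 180 alternative values of the members' log2 fold changes, over 20 settings, 171 kept their direction and side of the threshold, 3 passed it and 6 changed sign. The 120 values for ICH against sham and for ICH + BYHWD against ICH held 0 changes of sign, which the choice of members favours. The changes of sign were all in ICH + BYHWD against sham, where no value passed the threshold: AS-tDR-000397 went from 0.0047 to -0.092 with limma-voom and -0.025 with only the 6 libraries compared, and ran from -0.062 to 0.20 when 1 library was left out, while AS-tDR-000393 ran from -0.25 to 0.070. With DESeq2, AS-tDR-000393 passed in ICH against sham at -0.71 and in ICH + BYHWD against ICH at 0.56. In those comparisons DESeq2 called 27 and 10 fragments and 1 member each, and in ICH + BYHWD against sham 19 fragments and 0 members, where edgeR called 0; the cause was not tested. Leaving out 1 library gave 0 to 44 calls and 0 to 1 members for ICH against sham, with AS-tDR-000393 at -0.99 to -0.68, 0 calls for ICH + BYHWD against ICH, and 0 to 17 for ICH + BYHWD against sham; the highest counts came without sham 3. When 1 library was left out, 4 of the 9 differences in log2 ratio between members took either sign. These were AS-tDR-000395 over AS-tDR-000393, at -0.024 to 0.25, AS-tDR-000397 over AS-tDR-000393, at -0.23 to 0.12, and AS-tDR-000397 over AS-tDR-000395, at -0.27 to 0.024, in ICH + BYHWD against ICH, and AS-tDR-000397 over AS-tDR-000393, at -0.010 to 0.32, in ICH + BYHWD against sham. No paired analysis was possible because no number in the labels pairs libraries of different groups. Counts of 146 to 617 tags and 3 libraries per group limit the precision of every value here.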
